A study of Mus musculus with 22 samples.

Results

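Extraocular muscle (EOM, the small muscles that turn the eyeball) was compared with leg muscle in SJL mice aged 10 months, on all 6 arrays that carry those labels out of 22 in the series. There were 3 EOM arrays and 3 leg arrays, each hybridised with total RNA of a whole muscle sample, and no array was chosen by a measured value. SJL is an inbred mouse strain with an inherited mutation of the dysferlin gene, whose product takes part in membrane repair of muscle fibres. Both muscles carried it, and no treatment was named. The labels do not say which leg muscle was taken, how many mice gave RNA, or whether replicates were separate animals. The p-values therefore measure only the spread between samples, which may not be that between mice. In the main fits this spread was pooled over the arrays of all groups of the series, not taken from these 6 arrays alone. The other groups of the series gave context and part of this pooled spread. Of SJL there were muscles at 12 months (3 leg and 2 EOM arrays). Of the Balb strain there were muscles at 10 months (3 and 3) and 12 months (3 and 2).

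EOM differs from limb muscle in its developmental origin in the head, in having some fibres innervated at many points, and in keeping myosin isoforms that limb muscle uses mainly before birth. Fast limb fibres draw on glycogen for bursts of force, while EOM is active almost without pause, and several muscular dystrophies spare it. A muscle sample also contains nerve, vessels, connective tissue, fat and, behind the eye, gland. In bulk RNA, fewer cells of a type and less RNA per cell cannot be told apart.

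The replicate 1 arrays of both muscles stood apart in RNA quality. Their ratios of 3' to 5' signal for Actb, a measure that climbs when RNA is broken, were 28.7 in leg and 53.7 in EOM, against 1.11 to 1.77 on the other 4 arrays. The Gapdh ratio was 19.9 and 14.1 on these arrays, 6.71 and 4.66 on EOM replicates 2 and 3, and 0.761 and 0.363 on leg replicates 2 and 3, so by Gapdh the muscles also differed among the better arrays. Over all probe sets, leg replicate 1 correlated with EOM replicate 1 at 0.917 but with leg replicates 2 and 3 at 0.826 and 0.829. Both replicate 1 arrays held less signal for the contractile apparatus. The summed intensity of 8 fast-fibre markers was 94479, 504593 and 414582 in leg and 100646, 311226 and 320486 in EOM. The probe set of the fast myosin Myh4 was listed at 0.7 on leg replicate 1 and at 107361 on leg replicate 2. Median intensities of the 6 arrays lay between 566 and 651. Each comparison is therefore given with all arrays and without replicate 1, and in every triplet of values below replicate 1 stands first.

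**Figure D1:**
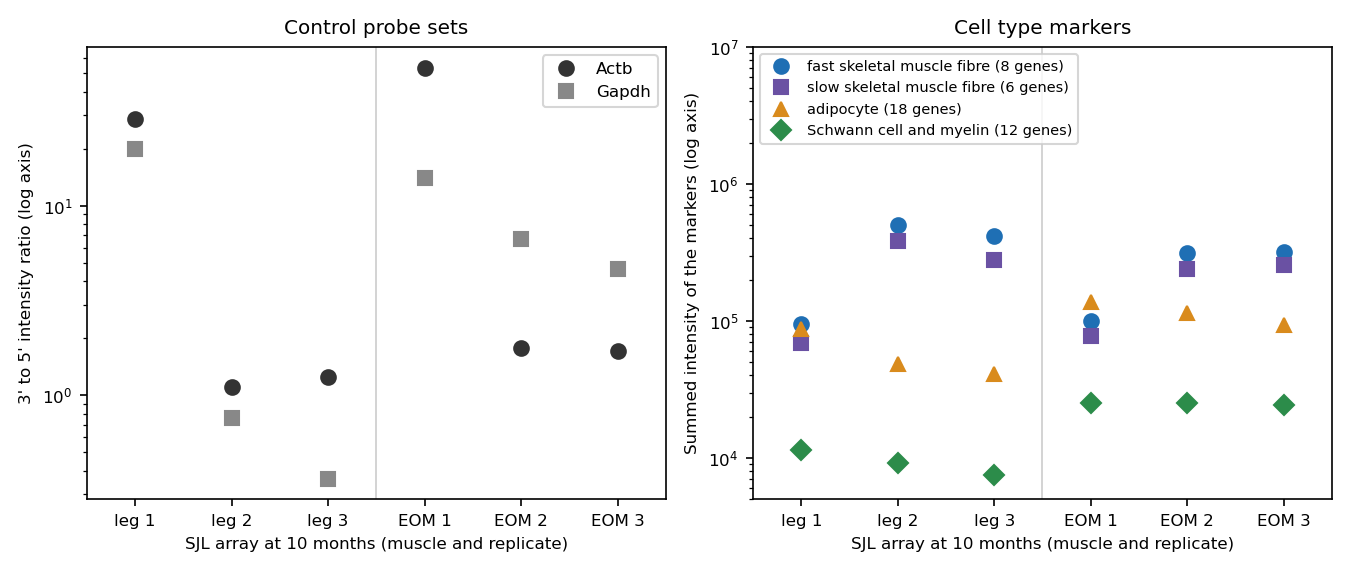
RNA quality and marker signal on the 6 arrays; the x axis lists each array by muscle and replicate. The left panel plots the 3' to 5' intensity ratios of the control probe sets for Actb and Gapdh, and the right panel the summed intensity of 4 marker lists, both on log axes. Replicate 1 of each muscle has Actb ratios of 28.7 and 53.7 and less summed signal of the fast- and slow-fibre markers. The Schwann cell markers separate the muscles on all 6 arrays.

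Each value below is the intensity the authors deposited, in arbitrary units, and each difference is EOM minus leg on the scale of log2(intensity + 16), with its standard error (SE) after the ± sign. The added 16 makes the differences of dim genes smaller than those of their ratios. With all arrays, 301 of 12422 probe sets passed an adjusted p of 0.05 (2.42%), 207 higher (1.67%) and 94 lower (0.757%) in EOM. Without the degraded arrays 1926 passed (15.5%), 1082 higher (8.71%) and 844 lower (6.79%). A block for the replicate number within each age was also fitted, shared by both strains and both muscles. It groups the degraded arrays of SJL and Balb with each other. With this block 1006 passed (8.1%), 612 higher (4.93%) and 394 lower (3.17%). All 301 kept their sign without replicate 1, 295 were called the same way there, and all 301 were called the same way with the block. Of the 1926 called without the degraded arrays, 877 were called the same way with the block, so adjusted p-values with the block are given where a named call was lost. The leg and EOM values did not overlap for 297 of the 301, where 7.32% of all probe sets were higher and 5.25% lower without overlap. The number called depended on single arrays: without leg replicate 1 it was 725, without leg replicate 2 it was 165, without leg replicate 3 it was 134, and without EOM replicate 2 it was 189. Without the degraded arrays, leaving out EOM replicate 2 as well gave 1281. When only the SJL replicate 1 arrays were left out and the degraded Balb arrays stayed in the fit, 529 passed. The 3 leg and 3 EOM arrays fitted alone gave 0 limma calls, and 841 probe sets had an unadjusted p under 0.05 there.

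Counted by gene, with the brightest probe set for each, 239 of 8251 genes passed with all arrays (2.9%), 1481 without the degraded arrays (17.9%) and 796 with the block (9.65%). With all arrays 2.05% of genes were called higher and 0.848% lower. Without the degraded arrays these shares were 10.7% and 7.21%, and with the block 6.1% and 3.55%. The counts of each gene list below are to be read against these shares, and its median log2 difference against the median over all genes, 0.03 with all arrays and 0.05 without the degraded arrays. The 12 largest rises and 12 largest falls were taken among genes that passed with all arrays, whose groups did not overlap and whose higher group averaged at least 500. Genes named below that passed in the other fits were in part chosen after their values were seen.

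**Figure D2:**
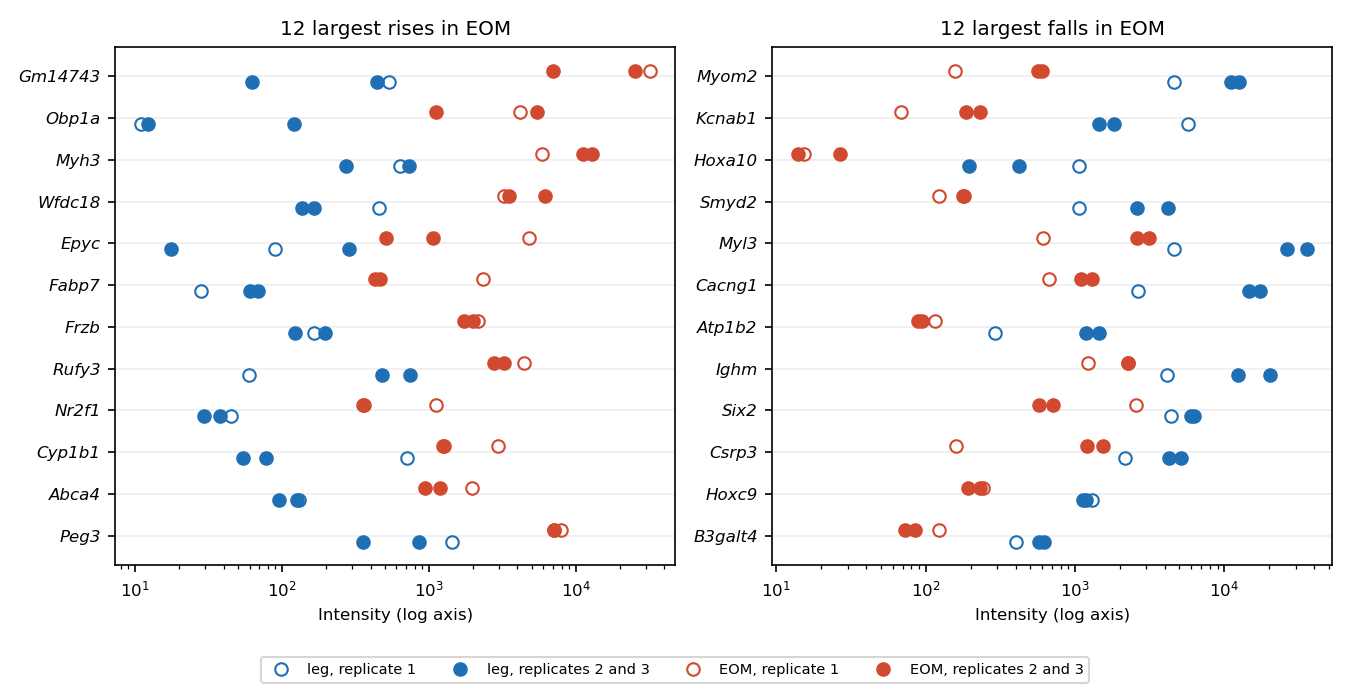
Intensity of the 12 genes with the largest rises (left) and the 12 with the largest falls (right) on each of the 6 arrays, on a log axis. Open circles are the degraded replicate 1 arrays and filled circles replicates 2 and 3. EOM and leg do not overlap for any of these 24 genes, which the choice of genes required. The replicate 1 circles of several fibre genes, such as Myl3, lie far below the others of their muscle.

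Of 7 sarcomeric myosin heavy chains, the counts were 2 higher and 0 lower with all arrays, 3 and 0 without replicate 1, and 2 and 0 with the replicate block. Myh3, the embryonic heavy chain, rose most, with intensities of 639, 727 and 274 in leg and 5892, 12977 and 11204 in EOM. Every EOM array lay above every leg array, and the log2 difference was 4.19 ± 0.35 with all arrays (adjusted p = 2.34e-06) and 4.70 ± 0.31 without replicate 1 (adjusted p = 4.84e-08), a 26-fold difference on the scale of intensity + 16. Myh8, the perinatal heavy chain, read 689, 861 and 408 in leg and 1631, 2826 and 3487 in EOM, again with no overlap. Its difference was 1.99 ± 0.37 with all arrays and 2.37 ± 0.36 without replicate 1 (adjusted p = 0.00536 and 0.000212). A second, dim Myh8 probe set overlapped between muscles and went the other way without replicate 1 (-2.09 ± 0.88, adjusted p = 0.132). Of the adult heavy chains, Myh1 read 33082, 56802 and 55872 in leg and 36541, 90548 and 66449 in EOM and passed only without replicate 1 (0.46 ± 0.15, adjusted p = 0.0405, and 0.211 with the block). Myh4 did not pass and its difference without replicate 1 was -0.68 ± 0.96, whereas with all arrays, the listed 0.7 included, it was 3.00 ± 2.27 (adjusted p = 0.662). Myh7, the slow heavy chain, differed by -0.42 ± 0.18 without replicate 1 (adjusted p = 0.14), and Myh13, the heavy chain named for EOM, was not analysed here.

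The largest fall among the named genes was that of Myom2, a myomesin of the M-band of fast fibres. It read 4579, 12484 and 11114 in leg and 157, 598 and 561 in EOM, so that the highest EOM array was below the lowest leg array. The difference was -4.45 ± 0.40 with all arrays (adjusted p = 3.36e-06) and -4.31 ± 0.19 without replicate 1 (adjusted p = 1.33e-09), a 19.8-fold difference on the same scale. Myl3, the ventricular and slow-fibre essential light chain, read 4584, 35476 and 26267 in leg and 609, 2582 and 3148 in EOM. Its difference was -3.23 ± 0.72 with all arrays and -3.41 ± 0.21 without replicate 1 (adjusted p = 0.0203 and 3.12e-08). Smyd2, a lysine methyltransferase found at the sarcomere, read 1066, 2597 and 4195 in leg and 124, 176 and 181 in EOM and differed by -3.71 ± 0.40 with all arrays (adjusted p = 3.45e-05). Its second probe set was also lower on every EOM array. Csrp3, the muscle LIM protein of the Z-disc, read 2151, 4265 and 5114 in leg and 160.3, 1540 and 1197 in EOM, with the degraded EOM array lowest, and its difference was -2.39 ± 0.55 with all arrays and -1.77 ± 0.27 without replicate 1 (adjusted p = 0.0248 and 0.000176).

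Among 16 measured fast-fibre genes the calls were 0 higher and 1 lower with all arrays, 2 and 5 without replicate 1, and 0 and 5 with the replicate block. Beside Myom2, the genes lower without replicate 1 were Mybph (-2.25 ± 0.17), Myoz1 (-1.71 ± 0.19), Pvalb (-1.50 ± 0.13) and Mylpf (-0.62 ± 0.19), and the genes higher were Tpm1 (0.75 ± 0.21) and Myh1. Mylpf and Tpm1 did not pass with the block (adjusted p = 0.0952 and 0.0614). Myoz1, which anchors calcineurin at the Z-disc, read 3065, 54613 and 55777 in leg and 1689, 14374 and 19830 in EOM, so only the better arrays separated the muscles. Pvalb, the calcium buffer parvalbumin, had probe sets that disagreed: the brighter read 33811, 48715 and 56570 in leg and 36420, 18430 and 18727 in EOM and the other 2361, 8524 and 5047 in leg and 3631, 45280 and 40833 in EOM. Actn3, the fast alpha-actinin, also had unequal probe sets. One read 19643, 26391 and 24977 in leg and 3752, 2843 and 3599 in EOM and differed by -2.79 ± 0.24 with all arrays (adjusted p = 2.34e-06), while the brighter one differed by -0.87 ± 0.43 without replicate 1 (adjusted p = 0.21) and passed only with the block (adjusted p = 0.0247).

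For 14 slow-fibre genes the counts were 0 higher and 3 lower with all arrays, 1 and 4 without replicate 1, and 1 and 5 with the replicate block. The members lower with all arrays were Myl3, Csrp3 and Atp2a2, the calcium pump of slow and cardiac muscle. Atp2a2 read 21095, 12921 and 7884 in leg and 3107, 3611 and 3904 in EOM, and its difference was -1.87 ± 0.32 with all arrays (adjusted p = 0.00249). Ankrd2 joined them without replicate 1 (-1.65 ± 0.23, adjusted p = 9.56e-05), and Casq2, the slow-fibre calsequestrin, was higher (1.10 ± 0.32, adjusted p = 0.0253). The slow troponins and Myl2, the slow regulatory light chain, did not pass without replicate 1. Tnni1 differed by 0.29 ± 0.25, Tnnt1 by -0.21 ± 0.27, Tnnc1 by -0.61 ± 0.20 and Myl2 by -0.60 ± 0.21 without replicate 1, with adjusted p-values of 0.529, 0.706, 0.0534 and 0.0626. Tnnc1 passed with the block (-0.86 ± 0.23, adjusted p = 0.031).

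A list of 20 immature-fibre and cardiac-isoform genes gave 5 higher and 1 lower with all arrays, 6 and 2 without replicate 1, and 6 and 2 with the replicate block. Its higher members were not all contractile proteins. Peg3, an imprinted zinc finger gene active in embryonic muscle, read 1426, 849 and 356 in leg and 7979, 7047 and 7096 in EOM, with leg replicate 1 nearest to EOM, and differed by 3.25 ± 0.37 (adjusted p = 6.75e-05). Mest, another imprinted gene, read 539, 71.6 and 47.4 in leg and 643, 701 and 965 in EOM and rose by 2.41 ± 0.58 with all arrays (adjusted p = 0.0303). Cdkn1c, an imprinted inhibitor of the cell cycle, rose by 0.86 ± 0.22 (adjusted p = 0.0469). Myf5, which specifies myoblasts, passed without replicate 1 (2.58 ± 0.68, adjusted p = 0.0153), and Ankrd1 was lower there (-2.04 ± 0.49, adjusted p = 0.0079).

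To set sequence beside these values, the 200 bases before the start of 4 of the genes are shown, 2 higher in EOM (Myh3 and Chrna1, the latter a receptor subunit described below) and 2 lower (Myl3 and Phka1, the latter a kinase subunit described below). They are from RefSeq on build GRCm38.p6, whose promoter table holds 19 of the 24 genes with the largest changes, and each ends at the base before the start. Both strands were searched for CAGCTG (an E-box letter string that reads the same on both strands), CATTCC (the MCAT core, GGAATG on the other strand) and TATAAA. Capitals mark the matches. Myh3 lies on the plus strand at chr11:67078100-67078299, Chrna1 on the minus strand at chr2:73580339-73580538, Myl3 on the plus strand at chr9:110763478-110763677 and Phka1 on the minus strand at chrX:102644247-102644446.
Myh3: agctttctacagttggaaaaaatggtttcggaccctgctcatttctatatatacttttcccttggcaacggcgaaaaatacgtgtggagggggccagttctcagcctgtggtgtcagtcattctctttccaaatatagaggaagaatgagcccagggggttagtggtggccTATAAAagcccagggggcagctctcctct
Chrna1: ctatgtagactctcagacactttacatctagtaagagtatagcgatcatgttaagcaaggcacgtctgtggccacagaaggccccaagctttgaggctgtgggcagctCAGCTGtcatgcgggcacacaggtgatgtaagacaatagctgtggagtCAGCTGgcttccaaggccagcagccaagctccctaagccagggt
Myl3: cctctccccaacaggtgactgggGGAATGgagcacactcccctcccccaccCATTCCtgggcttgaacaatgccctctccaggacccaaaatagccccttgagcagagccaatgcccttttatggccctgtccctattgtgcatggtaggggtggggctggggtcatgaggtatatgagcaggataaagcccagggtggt
Phka1: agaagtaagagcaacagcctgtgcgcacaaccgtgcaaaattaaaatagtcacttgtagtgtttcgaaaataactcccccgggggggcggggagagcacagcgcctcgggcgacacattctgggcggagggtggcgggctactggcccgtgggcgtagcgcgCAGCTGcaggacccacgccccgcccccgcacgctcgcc

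The Myh3 window held TATAAA starting at base -29 from the start. That of Chrna1 held CAGCTG at -92 and at -44, and that of Phka1 held it at -38. Myl3 had CATTCC at -149 and GGAATG at -177. Over all 32851 windows of this length in the table, 10.9% held CAGCTG, 10.1% CATTCC or its complement and 9.96% TATAAA on either strand. The 3 strings do not overlap in these windows, and a match describes letters only.

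Of 26 genes of excitation and calcium handling, more were lower in EOM than higher. The counts were 1 higher and 4 lower with all arrays, 2 and 8 without replicate 1, and 2 and 6 with the replicate block. Cacng1, the gamma subunit of the calcium channel that triggers contraction in skeletal muscle, read 2655, 14510 and 17274 in leg and 673, 1090 and 1307 in EOM. No EOM array reached the lowest leg array, and the difference was -3.13 ± 0.50 with all arrays (adjusted p = 0.00136) and -3.71 ± 0.20 without replicate 1 (adjusted p = 6.77e-09). Cacna2d1, another subunit of that channel, was lower without replicate 1 (-2.87 ± 0.42, adjusted p = 0.000129), as were the pore subunit Cacna1s (-0.56 ± 0.15) and the release channel Ryr1 (-0.75 ± 0.19). Cacna2d1 and Cacna1s did not pass with the block (adjusted p = 0.0738 and 0.629). Kcnab1, a cytoplasmic subunit of potassium channels, read 5699, 1439 and 1830 in leg and 68.0, 186 and 229.5 in EOM and was highest on leg replicate 1. It differed by -3.95 ± 0.51 with all arrays and -2.88 ± 0.48 without replicate 1 (adjusted p = 0.000156 and 0.000449), and its second probe set was also lower on all EOM arrays.

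The beta subunits of the sodium pump changed in opposite directions. Atp1b2 read 293, 1182 and 1449 in leg and 115, 88.9 and 95.0 in EOM and differed by -2.83 ± 0.68 (adjusted p = 0.0315). Atp1b1 read 1935, 1970 and 1592 in leg and 3634, 3176 and 3526 in EOM and differed by 0.91 ± 0.22 (adjusted p = 0.0285). Neither gene had overlapping groups, although the second probe set of each, dimmer than the first, did not pass.

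At the neuromuscular junction, where motor axons release acetylcholine onto its receptor, the calls for 14 genes were 1 higher and 0 lower with all arrays, 3 and 1 without replicate 1, and 3 and 0 with the replicate block. Chrna1, the alpha subunit that binds acetylcholine, read 2492, 1276 and 1352 in leg and 8837, 5194 and 7119 in EOM. All EOM arrays were above all leg arrays, and the rise was 2.07 ± 0.39 with all arrays and 2.20 ± 0.31 without replicate 1 (adjusted p = 0.00565 and 8.9e-05). Chrng, the gamma subunit of the fetal receptor, read 825, 186 and 149 in leg and 1224, 962 and 947 in EOM and passed without replicate 1 (2.41 ± 0.56, adjusted p = 0.00672) and with the block (adjusted p = 0.0365), while its second probe set overlapped. Chrnb1 differed by 1.00 ± 0.19 without replicate 1 (adjusted p = 0.00129) but did not pass with the block (adjusted p = 0.073). The 3 probe sets of Chrne, the adult epsilon subunit, gave 0.64 ± 0.23, 3.06 ± 0.34 and -1.46 ± 0.36 without replicate 1 and do not settle a direction. Ache, the esterase that ends the signal, was lower without replicate 1 (-1.43 ± 0.41, adjusted p = 0.0254) but did not pass with the block (adjusted p = 0.309).

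Of 26 genes of glycogen and glycolysis, 12 were lower and 3 higher in EOM without replicate 1. The counts in each fit were 0 higher and 2 lower with all arrays, 3 and 12 without replicate 1, and 2 and 8 with the replicate block. The list's median was -0.59 with all arrays and -0.55 without replicate 1. In SJL at 12 months, without the degraded arrays, 8 members were higher and 6 lower, with a median of 0.10. A difference between these ages passed for 4 members. In Balb 1 was higher and 10 lower at 10 months (median -0.39), and the median at 12 months was 0.12. Phka1, the muscle alpha subunit of phosphorylase kinase, read 1491, 7597 and 7850 in leg and 906, 963 and 1349 in EOM. The muscles did not overlap, and the difference was -2.06 ± 0.48 with all arrays and -2.74 ± 0.19 without replicate 1 (adjusted p = 0.0252 and 6e-08). Fbp2, the muscle fructose bisphosphatase, read 2155, 2178 and 2830 in leg and 199, 1168 and 783 in EOM and differed by -2.02 ± 0.40 with all arrays (adjusted p = 0.00906).

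Apart from Phka1 and Fbp2, the called members of the list did not pass with all arrays. Ppp1r3c, which targets a phosphatase to glycogen, read 818, 6518 and 7302 in leg and 171, 1140 and 745 in EOM, so that leg replicate 1 lay within the EOM range. Its difference was -2.88 ± 0.36 without replicate 1 (adjusted p = 3.26e-05) and passed with the block (adjusted p = 4.22e-05). Gpd1, a dehydrogenase of the glycerol phosphate shuttle, read 1834, 15202 and 18824 in leg and 1853, 2149 and 2367 in EOM and differed by -2.90 ± 0.32 (adjusted p = 7.85e-06). Pygm, the muscle glycogen phosphorylase, differed by -1.14 ± 0.19, Pgm1 by -1.34 ± 0.19 and Pgam2 by -1.28 ± 0.15 without replicate 1, and all 3 passed (adjusted p = 0.000547, 0.000119 and 1.8e-05). Ldhb, the lactate dehydrogenase of oxidative tissue, went the other way, as did Gbe1 and Hk2, with 1.47 ± 0.21, 1.28 ± 0.23 and 0.61 ± 0.13 (adjusted p = 8.9e-05, 0.000741 and 0.00341). Gbe1 and Hk2 did not pass with the block (adjusted p = 0.259 and 0.515).

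Mitochondrial genes were called higher mainly without replicate 1, with differences of 1.45 at most. For 71 genes of oxidative phosphorylation and the TCA cycle the counts were 2 higher and 0 lower with all arrays, 19 and 0 without replicate 1, and 5 and 0 with the replicate block. Cox6a1, a cytochrome oxidase subunit of non-muscle tissues, read 10173, 5497 and 4853 in leg and 26638, 15213 and 13092 in EOM with no overlap and rose by 1.43 ± 0.30 (adjusted p = 0.0155). Atp5k, an ATP synthase subunit, rose by 0.80 ± 0.20 (adjusted p = 0.0393). Uqcrc2 and Cox7a1 passed without replicate 1 with 0.78 ± 0.13 and 0.94 ± 0.18 (adjusted p = 0.00032 and 0.00161). Of 24 fatty acid oxidation genes, the counts were 0 higher and 0 lower with all arrays, 11 and 2 without replicate 1, and 4 and 1 with the replicate block. Slc25a20, the carnitine carrier, read 3872, 3490 and 3482 in leg and 4761, 8034 and 7783 in EOM and differed by 1.18 ± 0.11 without replicate 1 (adjusted p = 2.29e-06), while with all arrays it missed the threshold (adjusted p = 0.0511). Ucp3, a mitochondrial carrier of muscle, and Crat were lower there (-0.93 ± 0.17 and -0.64 ± 0.14), Crat not with the block (adjusted p = 0.127).

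Around the fibre membrane, the 26 sarcolemma and dystrophin complex genes gave 1 higher and 0 lower with all arrays, 9 and 2 without replicate 1, and 5 and 1 with the replicate block. Itga7, the laminin-binding integrin of muscle, read 3043, 2579 and 2740 in leg and 5778, 4616 and 4032 in EOM. It rose by 0.77 ± 0.20 with all arrays (adjusted p = 0.0478), though its 2 other probe sets overlapped between muscles. Of these the brighter read 355, 2684 and 2639 in leg and 281, 1714 and 2011 in EOM. Without replicate 1 it went the other way, with -0.52 ± 0.19 (adjusted p = 0.0803), so the probe sets disagreed. Without replicate 1 the higher genes included Dag1, the dystroglycan core, with 0.96 ± 0.13 (adjusted p = 6.55e-05), Lama2, its laminin partner, with 0.83 ± 0.22 (adjusted p = 0.0147), and Ahnak, a partner of dysferlin, with 0.93 ± 0.12 (adjusted p = 3.72e-05). The annexins Anxa1 and Anxa5, which bind membrane at repair sites, rose by 1.11 ± 0.17 and 1.20 ± 0.18 (adjusted p = 0.000179 and 0.000132). Des, the intermediate filament of muscle, was lower there (-0.73 ± 0.20, adjusted p = 0.0189). Sntb1, a syntrophin of the same complex, was lower as well (-2.35 ± 0.77, adjusted p = 0.0481). With the block, Dag1, Des and Sntb1 did not pass (adjusted p = 0.161, 0.254 and 0.526). Dysf itself was not analysed here.

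Of 46 transcription factors known to mark body position, the counts were 1 higher and 4 lower with all arrays, 3 and 6 without replicate 1, and 1 and 5 with the replicate block. Hox genes are used along the trunk and limb. Hoxa10 read 1067, 422 and 196 in leg and 15.3, 13.9 and 26.8 in EOM and differed by -3.77 ± 0.66 with all arrays (adjusted p = 0.00324). Hoxc9 read 1301, 1192 and 1134 in leg and 241, 230.0 and 191 in EOM and was even within each muscle, with a difference of -2.38 ± 0.53 (adjusted p = 0.0203). Hoxd8 fell on both of its probe sets, the brighter one with a difference of -2.29 ± 0.36 (adjusted p = 0.00129), and Hoxd9 passed without replicate 1 (-1.84 ± 0.35, adjusted p = 0.00145) but not with the block (adjusted p = 0.124).

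Other factors of this list moved in both directions. Six2, a homeobox gene, read 4405, 6299 and 5953 in leg and 2576, 575 and 714 in EOM, with the degraded EOM array between the groups of better arrays, and differed by -2.41 ± 0.43 (adjusted p = 0.00436). En1 was lower without replicate 1 (-1.64 ± 0.39, adjusted p = 0.00854). Tbx15, a T-box gene, read 7237, 3039 and 4477 in leg and 7950, 13168 and 15636 in EOM and rose by 1.35 ± 0.30 (adjusted p = 0.0191), but its 2 other probe sets overlapped. Nr2f1, a nuclear receptor outside this list, read 45.0, 37.6 and 29.5 in leg and 1117, 359 and 355 in EOM and rose by 3.35 ± 0.61 (adjusted p = 0.00475).

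**Figure D3:**
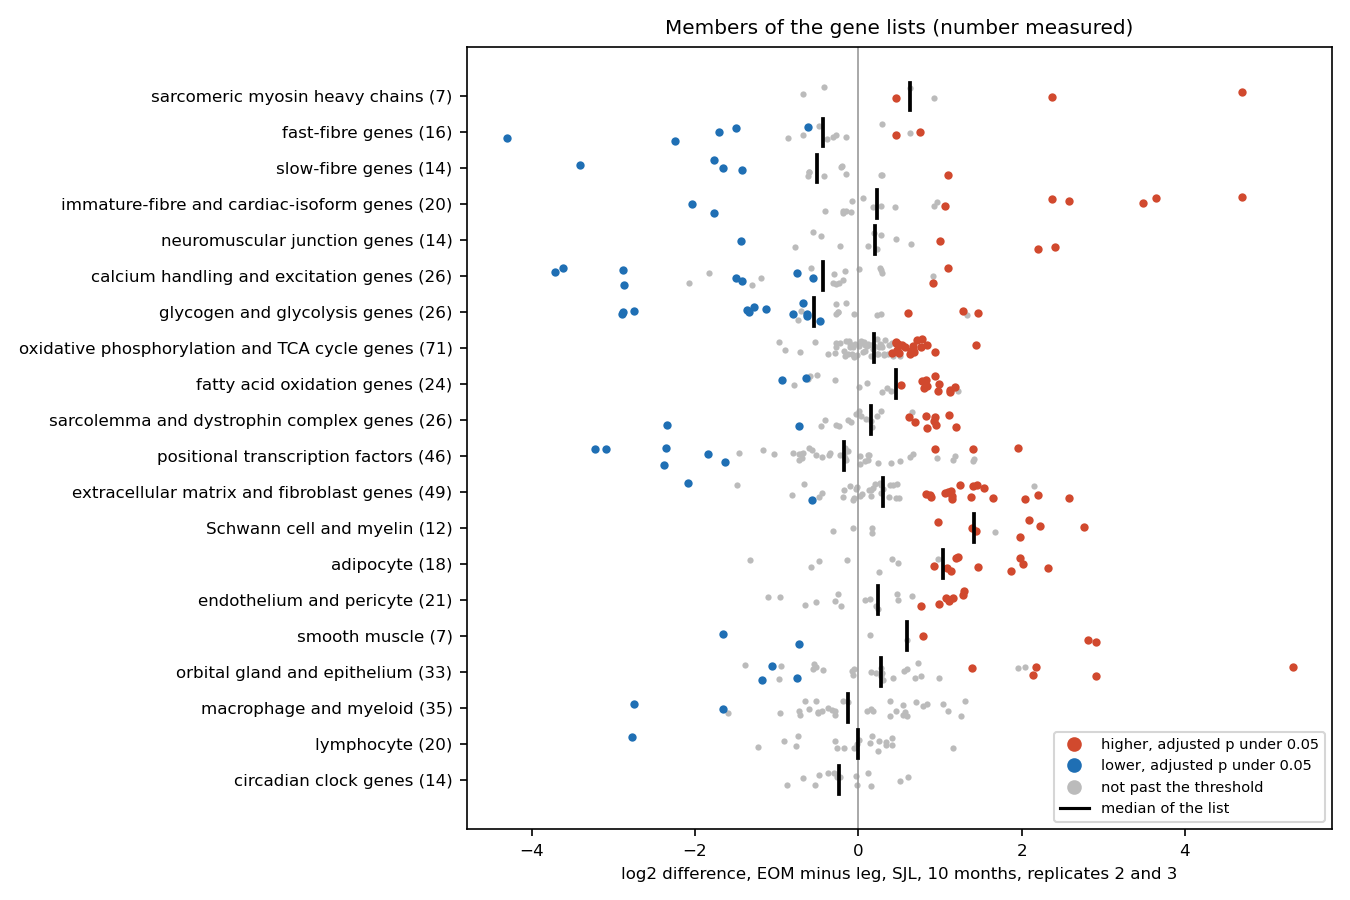
Log2 differences, EOM minus leg, of the members of 20 gene lists on replicates 2 and 3, one point per gene and one line per list, with the number of genes measured. Coloured points passed an adjusted p of 0.05 in the fit without the degraded arrays, grey points did not, and black bars are list medians. The Schwann cell and adipocyte medians lie at 1.42 and 1.03, and that of glycogen and glycolysis at -0.55.

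Markers of the nerve sheath were among those called higher in EOM. Of 12 Schwann cell and myelin genes, the counts were 5 higher and 0 lower with all arrays, 7 and 0 without replicate 1, and 6 and 0 with the replicate block. The summed intensity of the list was 11324, 9129 and 7541 in leg and 25187, 25152 and 24175 in EOM, with no overlap between muscles. All 3 EOM arrays lay above all 3 leg arrays for 8 of its members, where 7.78% of all genes were higher and 5.55% lower without overlap. Pmp22, a myelin membrane protein, read 3303, 1401 and 1165 in leg and 10624, 9563 and 8030 in EOM and rose by 2.40 ± 0.30 with all arrays and 2.76 ± 0.19 without replicate 1 (adjusted p = 0.00014 and 6.59e-08). Erbb3, the neuregulin receptor of Schwann cells, read 922, 564 and 681 in leg and 3384, 3168 and 2309 in EOM and rose by 2.02 ± 0.25 (adjusted p = 0.000154). Mbp, myelin basic protein, read 787, 1208 and 778 in leg and 1889, 3766 and 3958 in EOM and rose by 1.73 ± 0.37 (adjusted p = 0.0174), while a second Mbp probe set overlapped and the second probe sets of Pmp22 and Erbb3 were below 125 on all 6 arrays. Fabp7, a glial fatty acid binding protein outside the list, read 28.0, 68.2 and 60.3 in leg and 2329, 428 and 464 in EOM, highest on the degraded EOM array, and rose by 3.60 ± 0.79 (adjusted p = 0.0192). S100b, a calcium-binding protein of glia, was a further member that rose with all arrays (1.85 ± 0.46, adjusted p = 0.039). The part of nerve sheath in the differences of other genes was not tested.

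For 18 adipocyte genes the calls were 5 higher and 0 lower with all arrays, 10 and 0 without replicate 1, and 10 and 0 with the replicate block, and the list's median was 1.09 with all arrays. Their summed intensity was 86903, 48533 and 41096 in leg and 136739, 114494 and 92739 in EOM, so that leg replicate 1 came close to EOM replicate 3. Scd1, a desaturase of fat synthesis, read 19250, 9211 and 6690 in leg and 31416, 37716 and 25278 in EOM and rose by 1.55 ± 0.35 (adjusted p = 0.0204). Lpl, lipoprotein lipase, read 21715, 14205 and 13855 in leg and 39372, 34731 and 30744 in EOM and rose by 1.10 ± 0.26 (adjusted p = 0.0263). Its dimmer probe set overlapped, at 798, 3752 and 2790 in leg and 1059, 1939 and 1696 in EOM. Without replicate 1 that probe set went the other way (-0.83 ± 0.31, adjusted p = 0.0877). Adipoq, which fat cells secrete, read 4586, 2572 and 1717 in leg and 13699, 5061 and 4650 in EOM and passed without replicate 1 (1.20 ± 0.19, adjusted p = 0.000334) and with the block (adjusted p = 0.00792). The part of fat in the differences of other genes was not tested.

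Most connective tissue and vessel genes that passed were higher in EOM, though most members of the extracellular matrix and endothelium lists did not pass. Of 49 extracellular matrix and fibroblast genes, the counts were 6 higher and 0 lower with all arrays, 17 and 2 without replicate 1, and 11 and 2 with the replicate block. Col15a1, a basement membrane collagen, read 889, 783 and 1433 in leg and 2449, 3045 and 3173 in EOM and rose by 1.51 ± 0.24 (adjusted p = 0.00136). Thy1, a surface protein of fibroblasts and neurons, read 193, 756 and 146 in leg and 2351, 1850 and 2356 in EOM and rose by 2.88 ± 0.61 (adjusted p = 0.014). Lum, a collagen-binding proteoglycan, read 10684, 3621 and 2914 in leg and 21382, 12703 and 14221 in EOM and rose by 2.04 ± 0.16 without replicate 1 (adjusted p = 2.87e-07). Fmod, another proteoglycan of this family, was lower there (-2.08 ± 0.32, adjusted p = 0.000219). The 21 endothelium and pericyte genes gave 1 higher and 0 lower with all arrays, 7 and 0 without replicate 1, and 8 and 0 with the replicate block, and Tie1, an endothelial receptor, rose by 1.00 ± 0.23 with all arrays (adjusted p = 0.0211), though its second probe set overlapped. Mgp, a matrix protein that inhibits calcification, read 2745, 2304 and 1740 in leg and 5197, 6437 and 4754 in EOM and rose by 1.28 ± 0.26 (adjusted p = 0.0122). Among 7 smooth muscle genes the counts were 2 higher and 0 lower with all arrays, 3 and 2 without replicate 1, and 3 and 0 with the replicate block, and Acta2 and Cnn1 rose with all arrays by 0.96 ± 0.20 and 2.60 ± 0.64 (adjusted p = 0.0162 and 0.0334). Without replicate 1, Smtn and Des were the lower ones, and neither passed with the block (adjusted p = 0.0539 for Smtn). The part of connective tissue and vessels in the differences of other genes was not tested.

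Some of the largest rises were in genes of secretion and of the eye. Gm14743 had the largest rise of all named genes, at 531, 444 and 62.2 in leg and 31746, 25136 and 6974 in EOM, with EOM replicate 3 lowest of its group. Its difference was 6.04 ± 0.67 with all arrays and 6.13 ± 0.72 without replicate 1 (adjusted p = 4.81e-05 and 1.61e-05). Obp1a, an odorant-binding protein secreted by glands, read 10.9, 120.2 and 12.3 in leg and 4140, 5432 and 1113 in EOM and was also lowest on EOM replicate 3. It rose by 5.97 ± 1.00 (adjusted p = 0.00221). Wfdc18, a small secreted protein, read 459, 166 and 137 in leg and 3225, 6205 and 3507 in EOM and rose by 4.13 ± 0.66 (adjusted p = 0.00136).

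The list of 33 orbital gland and epithelium genes gave 4 higher and 0 lower with all arrays, 5 and 3 without replicate 1, and 4 and 2 with the replicate block. Beside Obp1a, the higher members were Bpifa2, a salivary and gland protein, with 228, 792 and 591 in leg and 1057, 3486 and 2848 in EOM, the keratin Krt19 and the kallikrein Klk1, which differed by 2.16 ± 0.48, 2.22 ± 0.55 and 2.06 ± 0.51 at adjusted p-values of 0.0203, 0.035 and 0.0353. With all arrays, a dim second probe set of Krt19 overlapped between muscles (0.08 ± 0.36, adjusted p = 0.969). That of Klk1, also dim, was higher in EOM (1.78 ± 0.43, adjusted p = 0.0297). Tff1, Krt4 and Cdh1 were lower without replicate 1, at -1.18 ± 0.26, -0.75 ± 0.23 and -1.06 ± 0.20, and Cdh1 did not pass with the block (adjusted p = 0.0665). The summed intensity of the list overlapped between muscles, at 41831, 34495 and 31559 in leg and 38022, 37468 and 27003 in EOM, and 2 members lay below 100 on all 6 arrays. The part of gland tissue in the other differences was not tested.

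Of 25 retina, lens and cornea genes, the counts were 2 higher and 1 lower with all arrays, 2 and 1 without replicate 1, and 2 and 1 with the replicate block. Rom1, a photoreceptor disc protein, read 14.2, 6.6 and 16.4 in leg and 891, 261 and 284 in EOM and Guca1a, a photoreceptor cyclase activator, 548, 154 and 214 in leg and 879.6, 793 and 1067 in EOM. They rose by 3.91 ± 0.60 and 1.72 ± 0.44 (adjusted p = 0.00104 and 0.0436), though the second Rom1 probe set did not pass. Opn1mw, a cone opsin, was lower on all EOM arrays (-1.43 ± 0.32, adjusted p = 0.0218). The list's summed intensity overlapped, at 16594, 13081 and 10833 in leg and 15564, 12747 and 14737 in EOM. Abca4, a retinoid transporter of photoreceptors outside this list, read 129, 95.1 and 127 in leg and 1955, 934 and 1191 in EOM and rose by 3.31 ± 0.40 (adjusted p = 0.000109).

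The other large rises were Epyc, a proteoglycan of cartilage, which read 89.0, 17.4 and 285 in leg and 4780, 1072 and 508 in EOM, and Frzb, a secreted Wnt antagonist, which read 164, 196 and 122 in leg and 2173, 1744 and 1985 in EOM. Their differences were 3.78 ± 0.75 and 3.50 ± 0.43 (adjusted p = 0.00844 and 0.000116). Frzb was even within each muscle, whereas Epyc was highest on the degraded EOM array. Rufy3, an adaptor known from neurons, read 59.3, 738 and 481 in leg and 4457, 3262 and 2791 in EOM, and Cyp1b1, a monooxygenase, 705, 77.4 and 54.2 in leg and 2956, 1263 and 1256 in EOM. They rose by 3.50 ± 0.66 and 3.33 ± 0.78 with all arrays (adjusted p = 0.00656 and 0.026), and a dim second probe set of Cyp1b1 overlapped.

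Few immune markers were called. Of 35 macrophage and myeloid genes, the counts were 0 higher and 1 lower with all arrays, 0 and 2 without replicate 1, and 0 and 2 with the replicate block. Lgals3, galectin 3, read 1344, 1299 and 953 in leg and 199, 333 and 351 in EOM and differed by -1.99 ± 0.45 with all arrays (adjusted p = 0.0223), and C1qa, a complement subunit of macrophages, was lower without replicate 1 (-2.75 ± 0.43, adjusted p = 0.000233). The summed intensity of the list overlapped, at 70275, 47780 and 39419 in leg and 54291, 40335 and 42281 in EOM. Among 20 lymphocyte genes 1 was lower in each fit, namely Ighm, the heavy chain of IgM. Its brightest probe set read 4144, 12252 and 20105 in leg and 1218, 2275 and 2274 in EOM and differed by -2.44 ± 0.55 with all arrays (adjusted p = 0.0207). A second read 4236, 7909 and 14228 in leg and 484, 484 and 618 in EOM, and differed by -3.85 ± 0.50 (adjusted p = 0.000156). The remaining 14 Ighm probe sets read at most 1279 on any of the 6 arrays.

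The 14 circadian clock genes gave 0 higher and 0 lower with all arrays, 0 and 0 without replicate 1, and 0 and 1 with the replicate block. For the 17 antigen presentation genes the counts were 0 higher and 0 lower with all arrays, 3 and 0 without replicate 1, and 0 and 0 with the replicate block. Of 19 atrophy and stress genes the counts were 0 higher and 1 lower with all arrays, 3 and 3 without replicate 1, and 2 and 4 with the replicate block. Odc1, which starts polyamine synthesis, read 5061, 2833 and 3482 in leg and 1511, 1218 and 1237 in EOM and differed by -1.47 ± 0.29 with all arrays (adjusted p = 0.00843). Of 30 immediate early and heat shock genes, the counts were 1 higher and 0 lower with all arrays, 6 and 1 without replicate 1, and 3 and 1 with the replicate block. Egr2, also a regulator of myelin genes, rose by 1.37 ± 0.29 (adjusted p = 0.0157). B3galt4, a ganglioside-making enzyme in no list, read 402, 624 and 569.6 in leg and 122, 84.7 and 73.2 in EOM and differed by -2.33 ± 0.57 (adjusted p = 0.0348). For the 6 blood genes the counts were 0 higher and 0 lower with all arrays, 2 and 0 without replicate 1, and 2 and 0 with the replicate block, and Hbb-b2 and Alas2 rose without replicate 1 by 1.64 ± 0.20 and 1.92 ± 0.42.

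The same muscles at the other age and in the other strain came from different arrays. Within each fit, however, all comparisons used the same variance estimate for a probe set, so their calls are not independent. With all arrays, 1.36% of probe sets were called higher and 0.813% lower in SJL at 12 months (2.17% in all), 1.67% and 0.974% in Balb at 10 months (2.65%), and 2.9% and 1.4% in Balb at 12 months (4.3%). Of the 207 probe sets higher with all arrays in SJL at 10 months, 37.7% were called higher in SJL at 12 months, 48.3% in Balb at 10 months and 49.3% in Balb at 12 months. For the 94 lower ones these shares were 51.1%, 55.3% and 57.4%, and 0 were called in the opposite direction in these fits of all arrays. As shares of those comparisons' own calls, the shared probe sets made up 46.2%, 48.1% and 28.3% of the higher and 47.5%, 43% and 31% of the lower. Without the degraded arrays, 7.16% of probe sets were called higher and 6.24% lower in SJL at 12 months (13.4% in all), 6.4% and 5.68% in Balb at 10 months (12.1%), and 10.3% and 7.51% in Balb at 12 months (17.8%). In that fit the 1082 higher probe sets shared 44%, 44.7% and 44.5% with these groups, and 4, 3 and 8 were called in the opposite direction. The 844 lower ones shared 44.3%, 48.6% and 49.6%, and 9, 6 and 13 were called in the opposite direction. The shared higher probe sets were 53.5%, 60.9% and 37.8% of those groups' own calls, and the lower ones 48.3%, 58.2% and 44.9%. Cacng1 differed by -4.02 ± 0.18, -4.11 ± 0.20 and -3.96 ± 0.18 in these groups without the degraded arrays, and Myh3 by 4.99 ± 0.29, 5.94 ± 0.31 and 5.22 ± 0.29. B3galt4 did not pass in any of them, with -1.66 ± 0.62, -1.40 ± 0.68 and -0.63 ± 0.62.

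**Figure D4:**
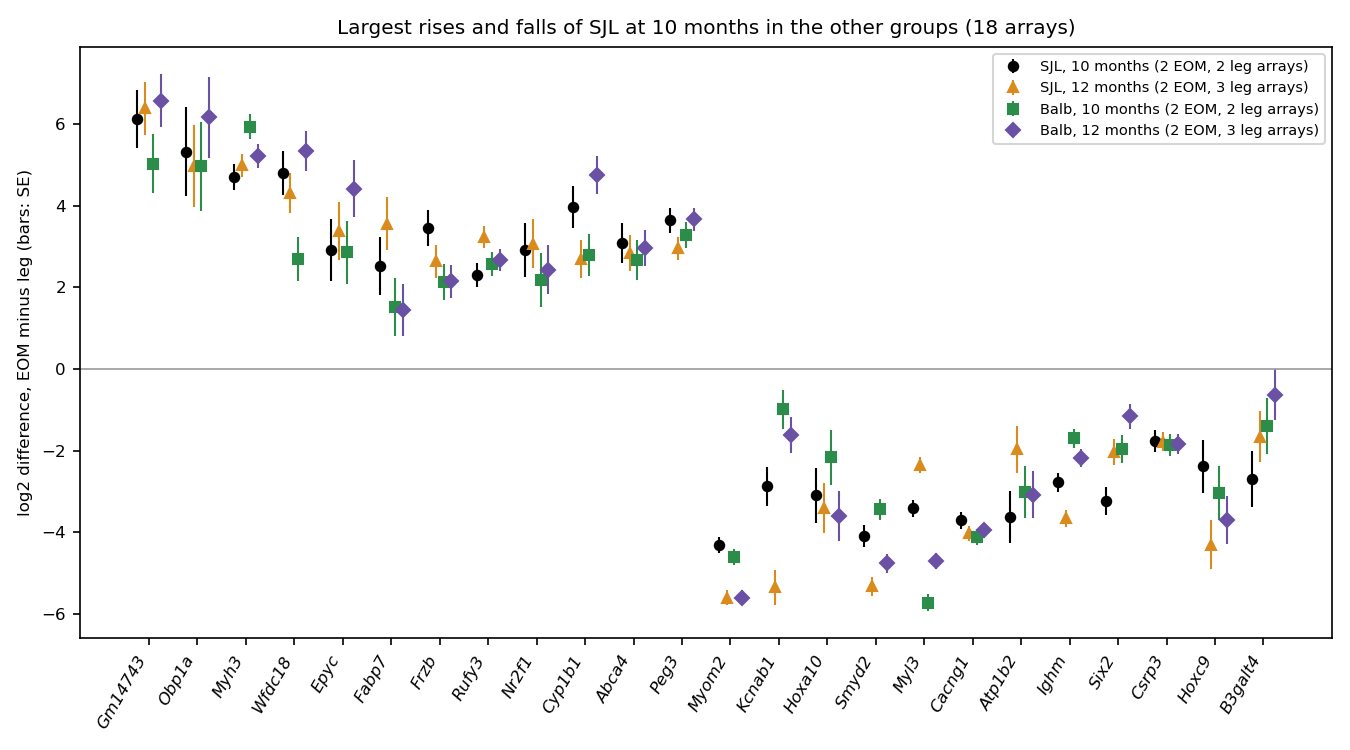
Log2 difference, EOM minus leg, of the 24 genes with the largest changes in SJL at 10 months, beside the same difference in the 3 other groups, all from the fit of 18 arrays without the degraded ones. Bars are standard errors. All 24 genes have the same sign in every group; Kcnab1, Myl3 and Wfdc18 are among those with the widest spread.

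The difference between strains was tested directly. With all arrays limma called no probe set (0%) while 446 had an unadjusted p under 0.05. Without the degraded arrays 47 passed (0.378%), 19 with a higher (0.153%) and 28 with a lower change (0.225%) in SJL. Among the 47 were slow-fibre markers, of which 5 of the 6 in the marker list passed. The light chain Myl2 read 21453, 68616 and 60613 in SJL leg, 27144, 43983 and 41175 in SJL EOM, 23466, 59943 and 47925 in Balb leg and 5952, 7516 and 5862 in Balb EOM. All SJL EOM arrays were above all Balb EOM arrays, while the leg arrays of the strains overlapped. The change was -0.60 ± 0.21 in SJL and -3.01 ± 0.21 in Balb, and these differed by 2.41 ± 0.29 (adjusted p = 0.00113).

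The same test passed for Myh7, Tnnc1, Tnni1 and Myl3. Myh7 read 26176, 43225 and 46042 in SJL EOM and 5598, 8728 and 6909 in Balb EOM, and Tnnc1 5810, 24596 and 25832 and 894, 3943 and 3331. The differences between strains were 2.09 ± 0.26 for Myh7, 2.23 ± 0.29 for Tnnc1, 2.06 ± 0.35 for Tnni1 and 2.31 ± 0.30 for Myl3 (adjusted p = 0.00113, 0.00133, 0.0108 and 0.00133). That of Tnnt1 did not pass (1.10 ± 0.38, adjusted p = 0.247). In the 12-month arrays Myl2 read 33851 and 30138 in SJL EOM and 8856 and 11053 in Balb EOM. Between EOM and leg of SJL at 10 months, Myl3 passed in every fit, Tnnc1 passed with the block, and the other 4 passed in none of the 3 fits. For Tnni1 and Myl3 the degraded SJL EOM array lay within the range of the Balb EOM arrays.

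**Figure D5:**
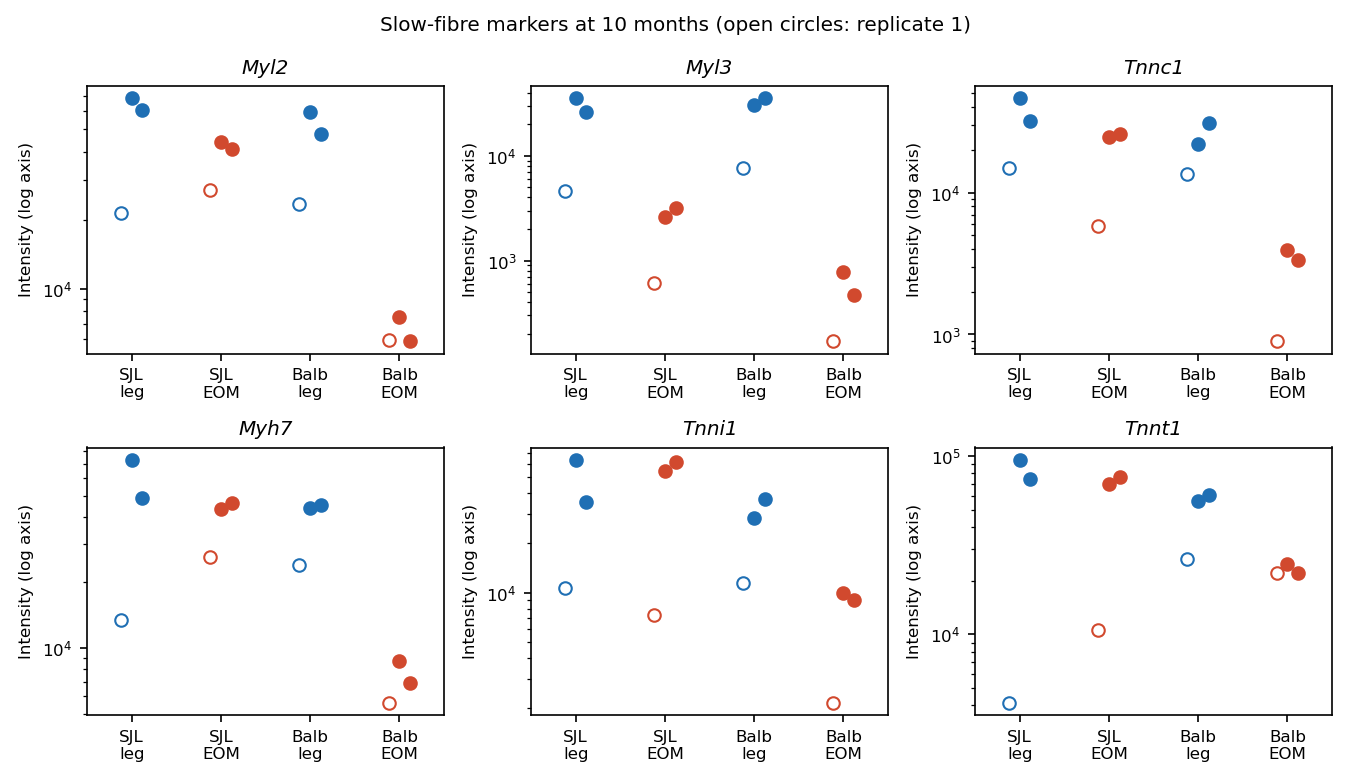
Intensity of the 6 slow-fibre markers at 10 months in leg (blue) and EOM (red) of SJL and Balb, on log axes whose range differs between panels; open circles are the degraded replicate 1 arrays. For Myl2, SJL EOM lies at 27144 to 43983 and Balb EOM at 5862 to 7516. The sixth gene, Tnnt1, is the one whose strain difference did not pass.

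Further strain differences were found outside the slow markers. Actc1, the cardiac actin kept in immature and EOM fibres, was picked after its values were seen. It read 20044, 39123 and 44415 in SJL leg and 9215, 8186 and 8779 in Balb leg, so that the leg arrays differed between strains, and 22952, 57536 and 56377 and 19056, 49964 and 46793 in EOM. The change was 0.45 ± 0.19 in SJL and 2.51 ± 0.19 in Balb, a difference of -2.06 ± 0.27 (adjusted p = 0.00133). Mbp changed by 1.98 ± 0.24 in SJL and 0.08 ± 0.24 in Balb, which differed by 1.89 ± 0.34 (adjusted p = 0.015). The second Mbp probe set did not show this, with 0.30 ± 0.35 in SJL, -0.02 ± 0.35 in Balb and a difference of 0.32 ± 0.50 (adjusted p = 0.893). Elovl5, a fatty acid elongase, read 1386, 900.5 and 1176 in leg and 8533, 6186 and 4230 in EOM in SJL and 8355, 15570 and 40852 in Balb EOM, and the strains differed by -2.32 ± 0.42 (adjusted p = 0.0186). Kcnab1 read 126, 125 and 200.1 in Balb leg, far below SJL leg, but the strain difference of its change did not pass (-1.89 ± 0.68, adjusted p = 0.273).

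The difference between ages in SJL gave no limma call with all arrays (0%), where 489 probe sets had an unadjusted p under 0.05. There were 137 calls without the degraded arrays (1.1%), 59 with a higher (0.475%) and 78 with a lower change (0.628%) at 10 months. Lpl read 18864, 18249 and 20046 in leg and 15354 and 16519 in EOM at 12 months, so that EOM lay below leg, and its change differed by 1.48 ± 0.20 (adjusted p = 0.00295). The dimmer Lpl probe set gave the opposite sign, -0.60 ± 0.42 (adjusted p = 0.556). The rise of Bpifa2 was larger at 12 months, with 7576 and 4961 in EOM, and differed by -2.99 ± 0.56 (adjusted p = 0.023). The fall of Myom2 was also larger at 12 months (a difference of 1.29 ± 0.26, adjusted p = 0.0299). For Acta1, the skeletal actin, and the brighter Actn3 probe set the change between muscles differed by -3.93 ± 0.83 and -4.62 ± 0.58 (adjusted p = 0.0345 and 0.00189). For Actn3 the other probe set gave -0.63 ± 0.28 (adjusted p = 0.319). The brightest probe set of each SJL leg array read 33366 to 41476 at 12 months and 107122 and 122314 on replicates 2 and 3 at 10 months. In EOM it read 49074 and 53175 at 12 months and 92951 and 96159 on those replicates. At 12 months Acta1 read 955, 9528 and 2057 in SJL leg and 26082 and 37059 in SJL EOM. The brighter Actn3 probe set read 972, 1337 and 4263 in leg and 22828 and 25545 in EOM. These leg values lay far below the brightest probe set of their arrays. The part of the lower maximum at 12 months in the age differences was not tested.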

How the data were processed

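RNA from whole muscle of SJL and Balb mice was hybridised to 1-colour Affymetrix arrays by the maker's protocol, per the labels' protocols. The values are the intensity of each probe set as deposited by the authors, on a linear scale. The software and the method of summarizing probes are not given in the sources used here. Each array's trimmed mean lay between 1499 and 1500, so the arrays had been scaled to 1 level.

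From 12488 probe sets, 66 controls were removed. Values were tested as log2(intensity + 16) with limma 3.58.1 in R 4.3.3, as 8 group means over 22 arrays with an intensity trend in the variance prior, and p-values were adjusted by Benjamini-Hochberg over all 12422 probe sets at 0.05. The fit without degraded arrays used 18 arrays, leaving out the 10-month replicate 1 arrays of both strains. A gene was represented by its brightest probe set among the 10833 with 1 gene symbol. Plots were made in Python 3.11.15 with matplotlib 3.10.9. The fit of EOM minus leg was tried on simulated data with independent noise on each array. Degraded RNA, the block and the tests between ages or strains were not part of that trial.

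Labels share replicate numbers. Deviations from each muscle's mean correlated at 0.598, 0.242 and 0.354 for same-numbered SJL leg and EOM arrays. Crossed numbers 2 and 3 gave 0.284 and 0.321, and for replicates 2 and 3 alone the correlation was -0.00166. The check therefore cannot show that numbers 2 and 3 pair arrays, since the degraded replicate 1 arrays stood apart in both muscles. The block had a term for each replicate number within an age, shared by both strains and both muscles. Its fit is given beside counts as an alternative.

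The members and gene lists were chosen with earlier results of these data known. Named by rule were the 12 largest rises and 12 largest falls described in the report and, within each list, at most 4 genes by ascending p with all arrays. The rule for age and strain differences, the 5 largest each way, gave none with all arrays. It was applied instead to the fit without the degraded arrays, so the genes given for these differences were chosen after values were seen. Outside the rule, and likewise chosen after their values were seen, were Adipoq, Ankrd1, Ankrd2, Anxa1, Cacna1s, Cacna2d1, Cdh1, Cdkn1c, Crat, Dag1, Des, En1, Fmod, Gbe1, Gpd1, Hk2, Hoxd9, Krt4, Ldhb, Lum, Mest, Myf5, Myh1, Myh7, Myoz1, Pgam2, Pgm1, Pygm, Ryr1, S100b, Sntb1, Tff1, Tnni1, Tpm1 and the second probe sets. The alternatives were other pseudocounts, a filter on dim probe sets, other scalings, array weights, fewer arrays and leaving out single arrays.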

Additional observations from a re-analysis of the deposited data

Results flagged for a closer look

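The results below were picked out because a test of the difference itself found the EOM minus leg change of SJL at 10 months to differ from that of SJL at 12 months or of Balb at 10 months. Only the genes picked by rule, the 6 slow-fibre markers and Actc1 were searched, whereas 137 probe sets passed between ages and 47 between strains. All come from limma without the degraded arrays, and with all arrays no probe set passed either test (0 of 12422), while 489 and 446 had an unadjusted p under 0.05. Each value is the difference of the 2 log2 changes, with its standard error, and a positive sign means a more positive change in SJL at 10 months.

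Between ages, the change was more positive at 10 months for Ccl12, a chemokine (3.94 ± 0.79), Cpa3, a mast cell protease (2.06 ± 0.44), Dnmt1, the maintenance DNA methyltransferase (1.50 ± 0.35), Lpl (1.48 ± 0.20), Mtmr14, a lipid phosphatase of muscle (2.01 ± 0.41), Myom2 (1.29 ± 0.26), Tram1 (2.02 ± 0.39) and Zbtb2 (2.05 ± 0.37). It was more negative for Acta1 (-3.93 ± 0.83), Actn3 (-4.62 ± 0.58), Bpifa2 (-2.99 ± 0.56), Inha, an inhibin subunit (-4.15 ± 0.79), Ltf, the iron-binding protein lactotransferrin (-3.02 ± 0.64), Pcnt (-3.62 ± 0.70) and Tsen34 (-1.85 ± 0.33). Acta1 read 617 on the degraded leg array and 66071 and above on the other 2 leg arrays at 10 months.

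Between strains, the change was more positive in SJL for the slow-fibre genes Myl2 (2.41 ± 0.29), Myl3 (2.31 ± 0.30), Tnnc1 (2.23 ± 0.29), Myh7 (2.09 ± 0.26) and Tnni1 (2.06 ± 0.35). The same direction was found for Npnt, a matrix ligand of integrins (3.26 ± 0.52), Dnmt1 (2.43 ± 0.37), Abcb10, a mitochondrial transporter (2.38 ± 0.48), Zbtb2 (2.20 ± 0.39) and Mbp (1.89 ± 0.34). It was more negative in SJL for Ache (-3.67 ± 0.59), Mapk8ip3, a motor adaptor (-3.04 ± 0.46), Elovl5 (-2.32 ± 0.42), Tsen34 (-2.25 ± 0.34), Lima1, an actin-binding protein (-2.14 ± 0.33) and Actc1 (-2.06 ± 0.27). For Ache the change was -1.43 in SJL and 2.24 in Balb. The second probe set of Dnmt1 was lower in EOM of SJL without replicate 1 (-1.72 ± 0.55), opposite to the brighter one (2.59 ± 0.26). Further probe sets of genes named here did not pass the same tests. They gave -0.63 ± 0.28 for Actn3, -0.56 ± 1.10 for Cpa3, 0.76 ± 0.75 for Dnmt1, -0.60 ± 0.42 for Lpl, 0.83 ± 0.60 for Mtmr14 and 0.55 ± 0.38 for Tram1 between ages, and 0.24 ± 0.78 for Dnmt1 and 0.32 ± 0.50 for Mbp between strains.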

How the results depend on the processing

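All arrays gave 301 calls, which stayed within 267 to 335 when the pseudocount was 1 or 64, when the lowest 30% of probe sets were left out, with quantile normalization, with arrays centred on their medians and with a variance prior without an intensity trend. Array weights gave 974 and the replicate block, which groups arrays of both strains by number within an age, 1006. The 18 arrays without degraded ones gave 1926, and 20 arrays, with the degraded Balb arrays kept, gave 529. Using only the 11 SJL arrays gave 129 and only the 6 arrays compared 0. Leaving out 1 of the 6 arrays gave 134 to 725. Without the degraded arrays, the 1926 calls became 905 in the 4 arrays fitted alone and 529 with 20 arrays, and leaving out 1 array gave 1281 to 1504. For the difference between ages, 0 calls became 1 with a pseudocount of 64, 1 without the trend, 1 with the replicate block and 137 with 18 arrays, and leaving out 1 array gave 0 to 2. For the difference between strains, 0 calls became 2 with quantile normalization, 6 with array weights, 6 with the replicate block and 47 with 18 arrays. Causes of these shifts were not tested. With median centring 50.8% of the calls without degraded arrays were higher, against 56.2%. By gene, the alternatives were run only for those picked by rule, not for the named genes listed as outside the rule. None of the genes so tried that were called in either fit changed sign under any alternative. Of 62 called with all arrays, 26 lost the call with the 11 SJL arrays and all 62 with 6 arrays. Of 105 called without the degraded arrays, 33 lost it with 20 arrays and 1 when the replicate block was added to those 18 arrays. Array number and the brightness of a probe set limit precision, since 2 or 3 arrays stand for each muscle.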

Other observations

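Some cell types not described above were read from their markers. Of 12 nerve axon and brain genes, 1 passed without replicate 1, namely Nefm, a neurofilament chain of large axons. It read 67.6, 81.0 and 66.7 in leg and 78.4, 529 and 427 in EOM, so that the degraded EOM array lay within the leg range, and differed by 2.46 ± 0.51 (adjusted p = 0.00302). Of 8 melanocyte genes 1 passed, Kit, a receptor also carried by mast cells. It read 546, 53.3 and 65.3 in leg and 1255, 629.5 and 505 in EOM, with leg replicate 1 inside the EOM range, and differed by 2.36 ± 0.61 with all arrays (adjusted p = 0.0486). Cpa3, a mast cell protease, read 612, 263 and 159 in leg and 679, 1233 and 1219 in EOM, without overlap. It differed by 2.49 ± 0.33 without replicate 1 (adjusted p = 5.1e-05), and its adjusted p was 0.0604 with all arrays and 0.0203 with the block.

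Myh11, the smooth muscle myosin heavy chain, read 59.9, 624 and 242 in leg and 314, 3074 and 2976 in EOM and passed without replicate 1 (2.90 ± 0.33, adjusted p = 1e-05) but not with all arrays. Mt2, a metallothionein that binds zinc, read 21395, 18547 and 17872 in leg and 7399, 5680 and 4448 in EOM. The EOM arrays all lay below the leg arrays, and the difference was -1.85 ± 0.46 without replicate 1 (adjusted p = 0.0101). Sesn1, a stress-response regulator of TOR signalling, read 4266, 1996 and 1581 in leg and 3631, 5782 and 5240 in EOM and differed by 1.62 ± 0.18 without replicate 1 (adjusted p = 1.15e-05), where leg replicate 1 was above EOM replicate 1.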
